A study of Mus musculus with 10 samples.

Results

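Interferon-stimulated genes are genes that cells switch on when interferon, a secreted warning signal of infection, binds its receptors. Binding activates the kinases JAK1 and TYK2 and transcription factors such as STAT2, which joins IRF9 to bind a short promoter element, the interferon-stimulated response element. The products sense viral nucleic acids, degrade or trap viral RNA, attack the membranes around intracellular microbes and dampen the signal again. Pluripotent stem cells are known for a weak interferon response, while fibroblasts respond strongly. The genes described here were chosen by name, as 47 well known mouse members of this response, with earlier results of these arrays known. Of the 47, 45 had at least 1 probe set that the array annotation pairs with that gene alone, 76 probe sets in all. A probe set was kept where its signal lay above the median of its own array in at least 2 of the 10 arrays, and 42 members passed, among 13242 genes tested.

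RNA of sorted mouse cells of 3 groups was measured with the Affymetrix GeneChip 430 2.0. AG-haESC denotes haploid embryonic stem cells of androgenetic origin, which hold a paternal genome alone. Each of 5 such lines, all C57BL/6J, was measured on 1 array. Replicates 1 to 5 are the lines AGH-OG-1 (passage 14), AGH-OG-2 (passage 15), AGH-EG-1 (passage 15), AGH-OG-3 (passage 12) and AGH-OG-4 (passage 14), and every list of 5 values follows this order. The 4 OG lines carried an Oct4-EGFP transgene and the EG line an Actin-EGFP transgene. All 5 were grown on feeder cells with the inhibitors CHIR99021 and PD0325901, and their haploid peak was sorted after Hoechst 33342 staining. The labels give Hoechst at 15 µg/ml for all 3 groups. E14, a diploid male embryonic stem cell line (129/Sv), is represented by 3 arrays at passage 17. MEF are fibroblasts of male B6D2F1 embryos (d13.5), with 2 arrays at passage 2. The labels name no interferon treatment for any group, and the E14 and MEF medium is not stated in them. The haploid lines and E14 thus differ at once in ploidy, parental origin, strain, passage, transgene and possibly medium, and these cannot be told apart. The 3 E14 arrays hold no spread between diploid lines.

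The arrays matched their labels. All 10 embryonic stem cell markers lay above the array median in every AG-haESC and E14 array, and 2 of them did so in MEF. The summed signal of 16 fibroblast markers was 151190 to 176540 in MEF, 2783.7 to 8730.1 in AG-haESC and 1919.9 to 2419.2 in E14. The summed signal of 15 macrophage markers was 8181.1 to 8514 in MEF, with all 15 above the median, against 1182.6 to 2731 in AG-haESC and 1248.2 to 1583.9 in E14. In bulk RNA, fewer cells of a type and less RNA per cell cannot be told apart. Every array was scaled to the same trimmed mean of 500, so values are relative within an array. All levels below are log2 signals of the brightest kept probe set of a gene, and they are compared between arrays for a gene, not between genes.

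The element that defines this response was visible in the promoters of some members, and a set of them is shown because their levels are described below. RefSeq promoters of GRCm38.p6 were found for 35 of the 47 members (43 promoters, since some genes have several starts), and the 250 bases before each start were searched on both strands. The core of the interferon-stimulated response element, searched as GAAA, any 2 bases and GAAA, or as its reverse complement, was present in 12 of the 43, or 27.9%, against 2.98% of all 32851 promoters in the table. Matches of the core may overlap, and 6 members held more than 1. Capitals mark the core in the windows of 40 to 74 bases that follow, each written 5′ to 3′ along the gene's own strand.

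Igtp, chr11:58199507-58199546, plus strand: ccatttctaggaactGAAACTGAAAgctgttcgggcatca
Rsad2, chr12:26456548-26456587, minus strand: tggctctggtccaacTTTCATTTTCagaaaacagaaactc
Irgm1, chr11:48871421-48871465, minus strand: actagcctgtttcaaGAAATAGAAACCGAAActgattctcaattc
Bst2, chr8:71537572-71537617, minus strand: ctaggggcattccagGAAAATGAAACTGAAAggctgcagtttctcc
Ifit1, chr19:34640770-34640828, plus strand: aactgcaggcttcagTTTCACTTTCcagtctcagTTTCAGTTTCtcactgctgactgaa
Ifit3, chr19:34583358-34583431, plus strand: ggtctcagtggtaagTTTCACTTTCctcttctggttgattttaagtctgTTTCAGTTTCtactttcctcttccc
Gbp2, chr3:142620589-142620628, plus strand: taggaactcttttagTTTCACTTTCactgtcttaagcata
Gbp2b, chr3:142594695-142594734, plus strand: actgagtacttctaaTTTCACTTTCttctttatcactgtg

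The core began 34 bases before the start in Igtp, 30 in Irgm1, 59 in Gbp2, 104 in Ifit1, 120 in Rsad2, 130 in Bst2, 137 in Gbp2b and 156 in Ifit3. The gamma-activated site, searched as TTC, any 3 bases and GAA, was in 5 of the 43 member promoters (11.6%) against 7.02% of all promoters. Igtp and Bst2 held both motifs. The gamma-activated site of Igtp ended within a few bases of its response element, as the letters ttctaggaa before the capitals show. A match is a description of the letters, not evidence of binding.

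The haploid stem cells held higher levels of several interferon-stimulated genes than E14. Of the 42 members, 9 were called higher in AG-haESC: Ifi27, Ifi35, Igtp, Nmi, Rsad2, Rtp4, Trim12a, Usp18 and Xaf1. Xaf1 is counted by its brightest probe set alone, and its other kept probe set was called lower. A call means an adjusted p under 0.05 over all genes tested and a difference of at least 2-fold, and 4.59% of all genes were called higher. The guanylate binding protein gene Gbp2b was the 1 member called lower, against 3.74% of all genes. Gbp2b lay above the array median in the 3 E14 arrays alone, so it passed the filter only through the group where it was high. The difference was positive in 35 of 42 members (83.3%), against 42.6% of all genes, and its median was 1.36 log2 units against -0.08 over all genes. The arrays of the groups did not overlap for 10 members with AG-haESC higher, where 9.88% of all genes behaved so, and for 1 with AG-haESC lower, against 12.8% of all genes. At an unadjusted p under 0.05, AG-haESC was the higher group for 24 members and 13.4% of all genes, and the lower group for 1 member and 17.2% of all genes. Markers of other cells moved in the same comparison. Of 16 fibroblast markers, 6 were higher in AG-haESC than in E14 (Col1a1, Col1a2, Col3a1, Dcn, Lum and Postn) and Mmp2 was lower, with 3.14 ± 0.69 log2 units for Col1a1 (adjusted p = 0.011, at least 3.875-fold) and 2.69 ± 0.47 for Col1a2 (0.0030). Of 15 macrophage markers, only Cd14 was called, higher by 3.41 ± 0.44 log2 units (adjusted p = 4.9e-04), at least 1.72-fold. The haploid lines were grown on feeder cells, and the part of such cells in the members' differences was not tested.

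**Figure D1:**
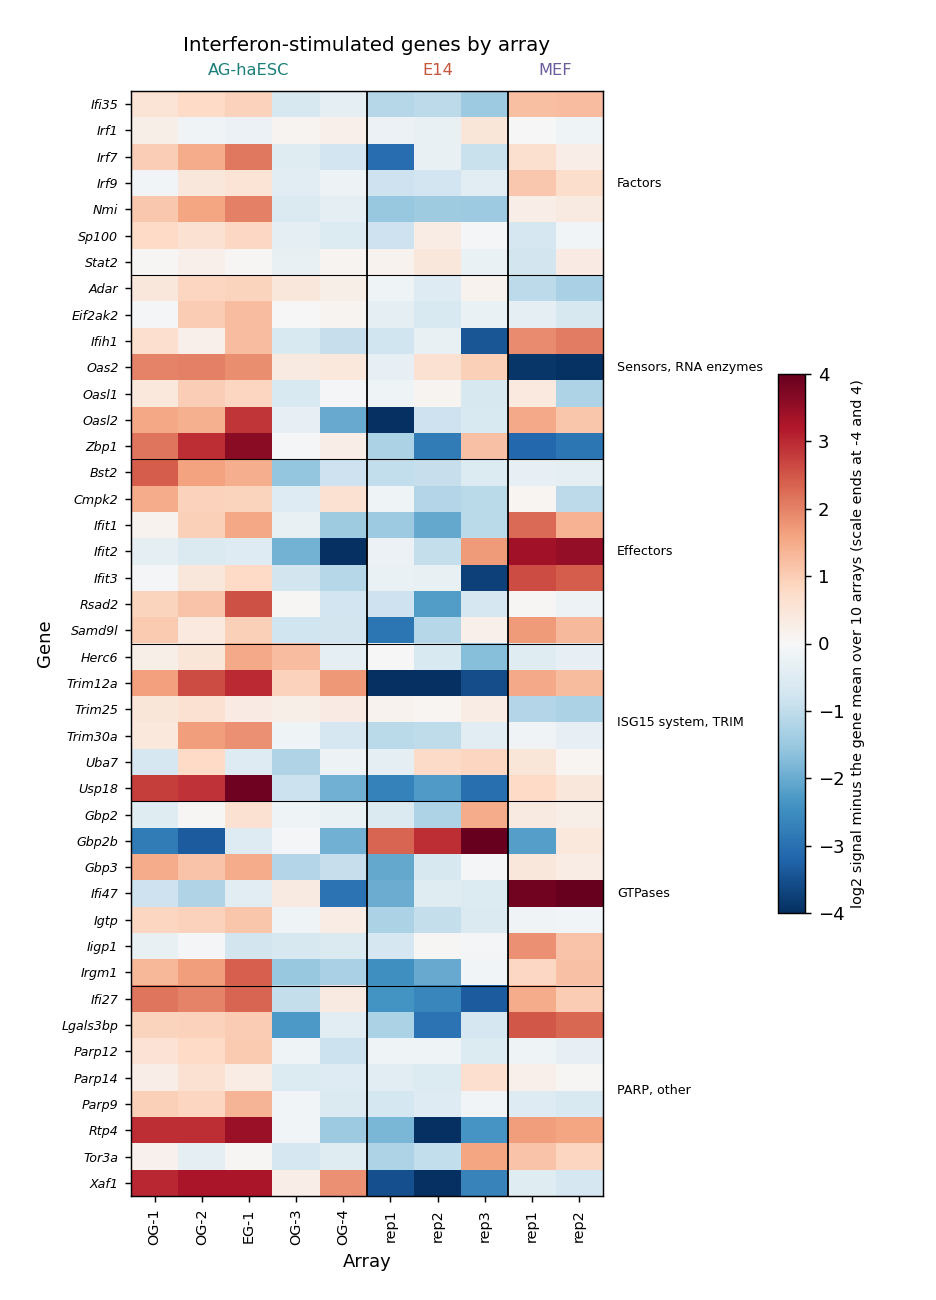
Heat map of the log2 signal of each of the 42 tested members, less its mean over the 10 arrays, with members in rows grouped by role and arrays in columns grouped as AG-haESC lines, E14 and MEF. The lines AGH-OG-1, AGH-OG-2 and AGH-EG-1 are high across most rows, while AGH-OG-3 and AGH-OG-4 are lower and E14 is low in most rows.

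Of the 7 transcription factors and signalling proteins, 2 (Nmi and Ifi35) were higher in AG-haESC than in E14, and 6 differences were positive. Nmi, an interferon-induced signalling protein, read 9.41, 9.90, 10.35, 7.74 and 7.96 in the 5 lines, 6.80, 6.90 and 6.88 in E14, and 8.59 and 8.70 in MEF. Every haploid line lay above every E14 array, and the MEF arrays lay inside the range of the lines. The difference from E14 was 2.21 ± 0.53 log2 units (SE, adjusted p = 0.016), and the call was lost without E14 replicate 1 (adjusted p = 0.054) or E14 replicate 2 (0.050). Ifi35, which forms a complex with Nmi, read 10.84, 11.09, 11.21, 9.67 and 9.90 in the lines, 9.14, 9.24 and 8.85 in E14, and 11.49 and 11.53 in MEF. All lines were above E14 and below MEF, with 1.47 ± 0.33 log2 units between the lines and E14 (adjusted p = 0.012). Irf7, the factor that amplifies the response once interferon has been sensed, differed by 2.08 ± 0.74 log2 units but did not pass (adjusted p = 0.078). Irf9, the DNA-binding partner of STAT2, differed by 0.71 ± 0.25 log2 units (adjusted p = 0.083), and Sp100, a nuclear body protein, by 0.46 ± 0.49 (0.56). Irf1 and Stat2 differed by 0.05 ± 0.20 and -0.08 ± 0.30 log2 units (adjusted p = 0.91 and 0.89).

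None of the 7 tested nucleic acid sensors and RNA enzymes was called, while all 7 differences from E14 were positive, with a median of 0.93 log2 units. Zbp1, a sensor of Z-form nucleic acid that can trigger cell death, read 7.78, 8.59, 9.24, 5.59 and 5.91 in the lines and 4.38, 2.84 and 6.80 in E14. E14 replicate 3 lay above 2 of the lines, and the difference was 2.75 ± 0.97 log2 units (adjusted p = 0.079). Oasl2, a relative of the 2'-5'-oligoadenylate synthetases, read 7.39, 7.27, 8.70, 5.50 and 3.82 in the lines, 1.17, 4.998 and 5.23 in E14 and 7.34 and 6.94 in MEF. AGH-OG-4 lay below 2 of the E14 arrays, and the difference did not pass (2.74 ± 1.11 log2 units, adjusted p = 0.12). Adar, which edits double-stranded RNA, had an adjusted p of 0.031 for 0.77 ± 0.21 log2 units, short of the 2-fold threshold. Ifih1, Eif2ak2, Oas2 and Oasl1 differed by 0.55 to 1.62 log2 units and were not called. Dhx58, a helicase of the same sensing family, lay below the array median in all 10 arrays.

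Of the 7 tested antiviral effectors, 1 was higher. Rsad2 (viperin), which makes a chain-terminating nucleotide, read 8.06, 8.29, 9.70, 7.21 and 6.41 in the lines, 6.32, 4.94 and 6.50 in E14 and 7.21 and 6.97 in MEF. AGH-OG-4 lay within the E14 range, and the difference was 2.01 ± 0.62 log2 units (adjusted p = 0.049). This call was lost without AG-haESC replicate 1 (adjusted p = 0.090), 2 (0.096) or 3 (0.071) and without E14 replicate 1 (0.087) or 2 (0.19). It was also lost in 6 other settings, with adjusted p from 0.052 with a pseudocount of 32 to 0.081 without a variance trend, and was kept in 6 of 17 alternatives. Cmpk2, a nucleotide kinase gene next to Rsad2 on chromosome 12, differed by 1.48 ± 0.47 log2 units and was just short of the threshold (adjusted p = 0.054). Bst2 (tetherin), which holds budding virus at the cell surface, read 12.46, 11.64, 11.50, 8.50 and 9.21 in the lines, 9.04, 9.12 and 9.47 in E14 and 9.71 and 9.67 in MEF. The first 3 lines stood above every other array, AGH-OG-3 stood below all of them, and the difference from E14 was 1.45 ± 0.75 log2 units (adjusted p = 0.22). Ifit1, Ifit3 and Samd9l differed by 1.72, 1.30 and 1.44 log2 units and Ifit2 by -1.64, none of them called. Mx1 and Mx2, dynamin-like GTPases that block viral replication, lay below the median in all arrays, with highest log2 signals of 6.06 and 4.93.

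Among 6 tested members of the ISG15 system and the TRIM ubiquitin ligases, 2 were higher. Usp18, which removes ISG15 from proteins and shuts down the interferon receptor, read 10.07, 10.20, 11.21, 6.46 and 5.39 in the lines, 4.60, 5.06 and 4.31 in E14 and 8.11 and 7.76 in MEF. All lines were above E14, AGH-OG-4 by the smallest margin and AGH-EG-1 by the largest. The difference was 4.01 ± 1.13 log2 units (adjusted p = 0.034). All E14 arrays were below their array medians, so the fold is given as a bound, with the dim group put at the mean of its array medians, and Usp18 was at least 6.16-fold higher. Leaving out AG-haESC replicate 1, 2 or 3 ended the call (adjusted p = 0.074, 0.073 and 0.064), as did leaving out any E14 array (0.092, 0.078 and 0.060). Trim12a, a mouse relative of the retrovirus restriction factor TRIM5, read 6.54, 7.51, 7.88, 5.81 and 6.62 in the lines, 0.37, 0.33 and 1.34 in E14 and 6.41 and 6.16 in MEF. The haploid lines and MEF shared 1 range while E14 was near 0, with a difference of 6.19 ± 0.55 log2 units (adjusted p = 5.2e-05). Because E14 was far below the array median, the bound was only at least 1.78-fold. With all signals raised to the array median the Trim12a difference was 0.86 log2 units and was not called (adjusted p = 0.13). Trim30a, Herc6, Trim25 and Uba7 differed by 1.47, 1.38, 0.23 and -0.78 log2 units and were not called. Isg15 itself has no probe set of its own on this array, because its probe set is shared with Gm9706.

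The 7 guanylate binding proteins and immunity-related GTPases, which attack vacuoles around intracellular microbes, moved in both directions, with 1 higher and 1 lower. Igtp (Irgm3) read 9.18, 9.25, 9.45, 8.16 and 8.63 in the lines, 7.06, 7.36 and 7.75 in E14 and 8.17 and 8.22 in MEF. Every line lay above E14, by 1.54 ± 0.29 log2 units on average (adjusted p = 0.0047). Gbp2b read 0.96, 0.42, 3.26, 3.70 and 1.84 in the lines, 6.10, 6.72 and 8.88 in E14 and 1.55 and 4.19 in MEF. E14 was the high group here, and the lines and MEF overlapped. AG-haESC fell by 5.20 ± 1.05 log2 units against E14 (adjusted p = 0.0069), at least 2.41-fold lower because all 5 lines lay below their array medians. With signals raised to the array median the difference was -1.27 log2 units and was not called (adjusted p = 0.089). The neighbouring genes on chromosome 3 did not share this pattern, with differences of 0.06 ± 0.50 log2 units for Gbp2 and 1.33 ± 0.69 for Gbp3, although Gbp2 and Gbp2b carry the same core TTTCACTTTC in the promoters printed above. Irgm1 read 10.03, 10.37, 11.10, 7.17 and 7.40 in the lines, 6.24, 6.68 and 8.58 in E14 and 9.51 and 9.88 in MEF. E14 replicate 3 exceeded the last 2 lines, and the difference of 2.05 ± 0.88 log2 units was not called (adjusted p = 0.14). Iigp1 and Ifi47 differed by -0.23 and -0.01 log2 units.

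Of the 8 remaining members tested, 3 were higher. Rtp4, a receptor transporter with antiviral activity, read 10.31, 10.31, 10.83, 7.24 and 5.91 in the lines, 5.55, 0.56 and 4.9996 in E14 and 9.03 and 8.93 in MEF. The lines lay above E14, AGH-OG-4 by the smallest margin, and E14 replicate 2 stood far below the other two. The difference was 5.22 ± 1.28 log2 units (adjusted p = 0.019), at least 7.36-fold, and without E14 replicate 2 it was 3.64 (adjusted p = 0.076). Ifi27, a mitochondrial membrane protein, read 12.09, 11.91, 12.25, 8.97 and 10.29 in the lines, 7.53, 7.34 and 6.62 in E14 and 11.41 and 10.95 in MEF. Again every line was above E14, by 3.94 ± 0.65 log2 units on average (adjusted p = 0.0023), and both kept probe sets of Ifi27 were called. Parp9, Parp12, Parp14, Tor3a and Lgals3bp differed by -0.06 to 1.64 log2 units and were not called. Ifi44 has no probe set of its own here.

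Xaf1, a promoter of apoptosis, had opposite readings. Its brightest probe set, 1443698_at, read 11.85, 12.12, 12.11, 9.12 and 10.67 in the lines, 5.33, 4.59 and 6.18 in E14 and 8.38 and 8.16 in MEF. The lines were highest, MEF intermediate and E14 lowest, and the difference from E14 was 5.81 ± 0.63 log2 units (adjusted p = 1.6e-04). The other kept probe set, 1443621_at, read 5.97, 5.62, 5.38, 4.81 and 4.73 in the lines, 7.47, 7.75 and 7.74 in E14 and 8.72 and 8.64 in MEF. There the lines were lowest, with a difference of -2.36 ± 0.31 log2 units from E14 (adjusted p = 7.0e-04 with every probe set tested). The 2 probe sets thus gave calls in opposite directions, and no direction is drawn for the gene.

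**Figure D2:**
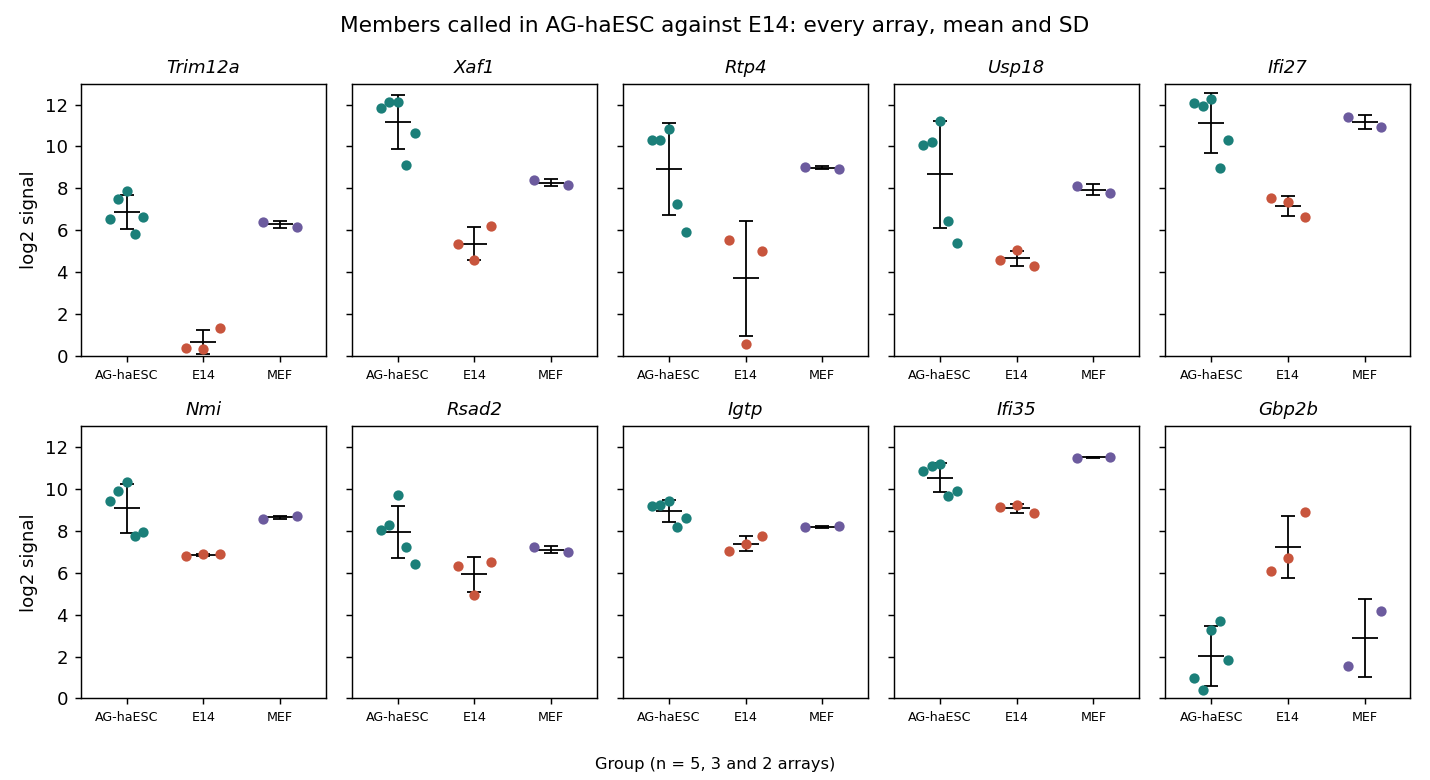
Log2 signal in each array for the 10 members called between AG-haESC and E14, with points for arrays, and the mean and SD of each group. For 8 of the 9 higher members all 5 haploid lines lie above the 3 E14 arrays, Rsad2 overlaps, and Gbp2b is the member with E14 on top.

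The calls rested unevenly on single arrays and probe sets. Ifi27, Ifi35 and Igtp kept their calls under all 17 alternative settings, as did the brighter probe set of Xaf1. The count of members called higher was 9, beside 608 genes of all tested. Without single arrays it ranged from 5 without E14 replicate 2, beside 550 genes, to 15 without AG-haESC replicate 5, beside 499, and it was 6 without E14 replicate 1, beside 518. With limma's array weights it was 22, beside 837 genes, and with signals raised to the array median it was 5, beside 502. Of the 14 members with several kept probe sets, 8 had probe sets that differed in sign or call in this comparison. Herc6, a ligase that attaches ISG15, was not called by its brightest probe set (1.38 ± 0.47 log2 units, adjusted p = 0.068). Another Herc6 probe set, 1432026_a_at, read 7.34, 7.25, 7.89, 7.57 and 6.64 in the lines, 3.11, 1.68 and 4.12 in E14 and 6.78 and 6.51 in MEF. That probe set separated the lines and MEF from E14, with 4.37 ± 0.50 log2 units between the lines and E14 (adjusted p = 2.6e-04 with every probe set tested). Yet another Herc6 probe set gave -0.09 log2 units. Ifi35 was called by 2 of its 3 probe sets. Uba7, which activates ISG15, ranged from -0.78 to 2.29 log2 units over 3 probe sets, and Tor3a from -0.47 to 0.55. Gbp2, Iigp1 and Stat2 also changed sign between probe sets, with no difference beyond 0.33 log2 units in size.

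The interferon-stimulated genes varied more among the 5 haploid lines than most genes did. The range over the lines had a median of 1.99 log2 units in the members and 0.73 over all genes, and it reached 1 log2 unit in 36 of 42 members (85.7%) against 32.4% of all genes. The median SD of a member was 0.84 log2 units among the lines, 0.62 among the E14 arrays and 0.17 between the MEF arrays, against 0.29, 0.33 and 0.13 over all genes. With 1 array a line, line and array cannot be told apart, and no test was made between lines. The 6 widest ranges were those of Usp18 (5.82 log2 units), Rtp4 (4.92), Oasl2 (4.87), Bst2 (3.96), Irgm1 (3.93) and Zbp1 (3.64), whose values in every line stand above. Trim25 (0.40), Irf1 (0.48) and Stat2 (0.49) were the narrowest.

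The lines kept much the same order from member to member. AGH-EG-1 was the highest line in 25 of 42 members (59.5%), against 16.5% of all genes. AGH-OG-1 and AGH-OG-2 were highest in 7 (16.7%) and 8 (19.0%), near their shares of 17.6% and 16.0% over all genes. AGH-OG-3 was lowest in 21 members (50%), against 26.2% of all genes, and AGH-OG-4 in 16 (38.1%), against 17.6%. AGH-OG-3 was highest in 2 members and AGH-OG-4 in none, against 24.2% and 25.7% of all genes. The median deviation of the members from their mean over the lines was 0.29, 0.57, 0.85, -0.75 and -0.86 log2 units, while over all genes it lay between -0.04 and 0.06. A pattern seen after the values were known was that AGH-OG-1, AGH-OG-2 and AGH-EG-1 were the 3 highest lines in 31 members (73.8%), against 12.5% of all genes. Of these 3 lines, AGH-EG-1 carries Actin-EGFP and the others Oct4-EGFP, as AGH-OG-3 and AGH-OG-4 do. Their passages were 14, 15 and 15, and those of AGH-OG-3 and AGH-OG-4 were 12 and 14. The part of transgene and passage in this pattern was not tested. The members' summed signal was 33412, 33997, 39336, 12608 and 14577 in the lines, 9803, 9784.9 and 13050 in E14 and 18738 and 16985 in MEF. AGH-OG-3 lay below the highest E14 array on this sum and AGH-OG-4 just above it. The fibroblast marker sums of the lines were 2783.7, 8730.1, 5536.1, 3067.1 and 5455.8, and the macrophage marker sums 2717.2, 2254.8, 1729.3, 1182.6 and 2731. The macrophage sums include Laptm5, which read 10.98, 10.52, 10.095, 9.07 and 10.92 in the lines, 9.17, 9.10 and 9.63 in E14 and 8.26 and 8.49 in MEF. Of the 15 macrophage markers, Cd14, Cd68, Csf1r and Laptm5 lay above the array median in all 5 lines and 9 lay below it in all 5. Cd68, Csf1r and Laptm5 also lay above it in all 3 E14 arrays. Cd14, a receptor for bacterial lipopolysaccharide, read 6.82, 6.79, 6.58, 6.81 and 7.14 in the lines, 2.16, 3.63 and 4.44 in E14 and 9.09 and 9.50 in MEF. The part of fibroblast and macrophage RNA in the differences between lines was not tested.

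**Figure D3:**
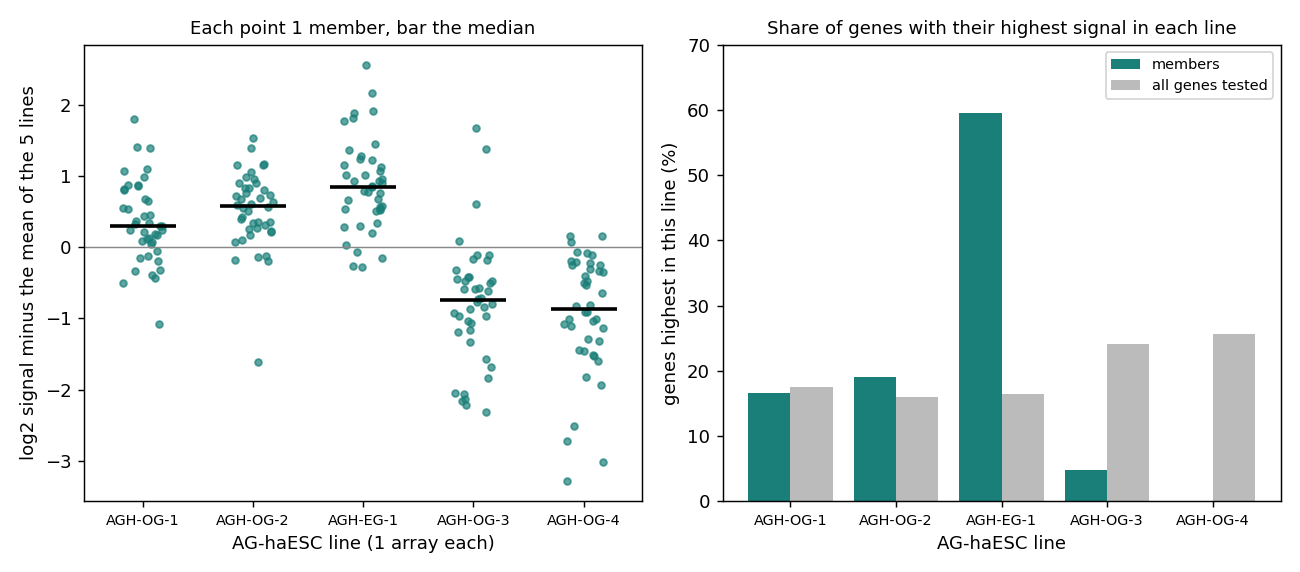
Left, the deviation of each member from its mean over the 5 haploid lines in log2 units, with 1 point per member and the median marked; right, the percentage of members and of all genes for which each line is the highest. AGH-EG-1 is the highest line for 59.5% of members and AGH-OG-4 for none, while the all-gene bars lie between 16.0% and 25.7%.

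Members with the core of the response element in their promoter ranged by a median of 2.66 log2 units over the lines, and those with a promoter but no core by 1.95. Of the 11 tested members with the core, Igtp and Rsad2 were called higher and Gbp2b lower in AG-haESC against E14. Of the 22 tested members whose promoter had no core, 4 were called higher and none lower. Of all genes, 4.59% were called higher and 3.74% lower. Members with and without the core were not compared by a test, in their ranges or in their calls.

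Against fibroblasts, the haploid lines were neither higher nor lower on the whole. Of the 42 members, 5 were higher in AG-haESC than in MEF (Adar, Oas2, Trim25, Xaf1 and Zbp1), against 19.7% of all genes, and 5 were lower (Ifi47, Ifit2, Ifit3, Iigp1 and Lgals3bp), against 22.5%. Both counts lie below the shares over all genes. The arrays did not overlap for 6 members with AG-haESC higher (34.6% of all genes) and 10 with AG-haESC lower (35.7%), and the median difference was 0.16 log2 units against 0.0045. The 2 MEF arrays make these differences less certain than those between the stem cells.

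Of the 5 higher members, 3 were nucleic acid sensors or RNA enzymes (of 7 tested). Oas2, which makes the second messenger that activates RNase L, read 8.24, 8.27, 8.13, 6.63 and 6.68 in the lines and 2.38 and 2.30 in MEF. All lines were above MEF, by 5.25 ± 0.56 log2 units (adjusted p = 9.9e-06), at least 3.04-fold. Zbp1 read 2.50 and 2.75 in MEF, below every line, with a difference of 4.80 ± 1.12 log2 units (adjusted p = 0.0030) and a bound of at least 2.71-fold. With signals raised to the array median Zbp1 was not called (adjusted p = 0.11). Zbp1 lay above the array median in 3 AG-haESC arrays, 1 E14 array and no MEF array. It thus needed AG-haESC, the group where it was high, to pass the filter. Trim25, the ligase that activates the RNA sensor RIG-I, was higher in AG-haESC by 1.60 ± 0.13 log2 units (adjusted p = 1.2e-06), with all 3 of its probe sets called. Adar was higher by 1.75 ± 0.24 log2 units on its brightest probe set (adjusted p = 7.9e-05) and also called on another (1.19), while the remaining probe set gave -0.56. Xaf1 was again called in both directions, higher by 2.90 ± 0.72 log2 units on the brighter probe set (adjusted p = 0.0044) and lower on the other (-3.38), and the mean of the pair was -0.24 log2 units (adjusted p = 0.69). Eif2ak2, the kinase PKR that stops translation, ranged from -1.28 to 0.97 log2 units over 3 probe sets and was called by none. For Uba7 and Tor3a, 1 of 3 probe sets each was called lower (-3.84 and -2.25 log2 units), and neither was the brightest. In all, 6 of the 14 members with several probe sets differed in sign or call in this comparison.

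Among the 7 tested antiviral effectors, Ifit2 and Ifit3, neighbours on chromosome 19, were lower. Ifit2, a translation inhibitor, read 5.39, 5.22, 5.28, 3.89 and 1.81 in the lines, 5.55, 4.83 and 7.50 in E14 and 9.14 and 9.33 in MEF. MEF stood above all stem cell arrays, and AG-haESC fell by 4.92 ± 0.95 log2 units against MEF (adjusted p = 9.1e-04), at least 9.67-fold lower. Ifit2 lay above the array median in 1 E14 array and the 2 MEF arrays, so it needed MEF to pass the filter. Ifit3 read 5.59, 6.12, 6.45, 4.93 and 4.51 in the lines, 5.39, 5.35 and 1.93 in E14 and 8.28 and 8.07 in MEF. MEF was again highest, and the difference of AG-haESC was -2.65 ± 0.87 log2 units (adjusted p = 0.020), lost without MEF replicate 1 (0.11) or 2 (0.085). Ifi47, an immunity-related GTPase, read 2.63, 2.25, 3.02, 3.83 and 0.51 in the lines, 1.48, 2.98 and 2.92 in E14 and 7.33 and 7.72 in MEF. Both stem cell groups lay below the array median and MEF above it, so AG-haESC was lower by at least 2.96-fold (-5.08 ± 1.03 log2 units, adjusted p = 0.0012). Ifi47 thus passed the filter only through MEF, the group where it was high. Iigp1 was lower, with a difference of -1.92 ± 0.35 log2 units (adjusted p = 5.8e-04), while its other kept probe set, with -2.14, was not called. Lgals3bp, a secreted glycoprotein, was lower, with -2.36 ± 0.85 log2 units (adjusted p = 0.031), a call lost without AG-haESC replicate 5 (adjusted p = 0.057), MEF replicate 1 (0.14) or MEF replicate 2 (0.11).

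The E14 cells held lower levels of many members than the fibroblasts. Of the 42 members, 15 were lower in E14 than in MEF, where 21.3% of all genes were lower, and 3 were higher (Gbp2b, Oas2 and Trim25), where 20.9% of all genes were higher. The median difference was -1.19 log2 units against 0.08 over all genes. Arrays did not overlap for 24 members with E14 lower, against 35.7% of all genes, and for 5 with E14 higher, against 38.2%. All 4 called antiviral effectors, Ifit1, Ifit2, Ifit3 and Samd9l, were lower, as were 3 signalling members (Irf9, Nmi and Ifi35), the sensor Ifih1 and the GTPases Iigp1 and Ifi47. Ifit2 lost its call without E14 replicate 2 (adjusted p = 0.059) or either MEF array (0.073 and 0.089), and Samd9l without MEF replicate 1 (0.075). Nmi lost its call without any 1 of the E14 or MEF arrays, with adjusted p from 0.053 to 0.13. The summed macrophage and fibroblast marker signals given above were higher in MEF than in either stem cell group. Single macrophage markers differed from this, since Laptm5 was higher in AG-haESC than in MEF by 1.94 ± 0.42 log2 units (adjusted p = 0.0019). The part of macrophage and fibroblast RNA in these differences was not tested.

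By measured log2 signal, the called members farthest apart between E14 and MEF were Trim12a, Rtp4, Ifi47, Gbp2b, Oas2 and Ifi27, whose array values stand above. For the first 5 the dim group lay below the array median, so only bounds hold for them and their order carries no meaning. Ifi27 is followed by Lgals3bp, which fell by 4.0045 ± 0.93 log2 units in E14 (adjusted p = 0.0032) and was looked up after its values were seen. Trim12a fell by 5.60 ± 0.69 log2 units in E14 (adjusted p = 3.7e-05), yet at least 1.18-fold only, since MEF lay close to the array median, and with signals raised to that median it was not called (adjusted p = 0.67). Rtp4 was at least 7.69-fold lower (-5.28 ± 1.60 log2 units, adjusted p = 0.015), and the call was lost without MEF replicate 1 (0.068) or 2 (0.064). Ifi47 fell by 5.07 ± 1.12 log2 units (adjusted p = 0.0024), a decrease of at least 2.79-fold, and Ifi27 fell by 4.02 ± 0.81 log2 units (0.0013). Those 4 genes had MEF arrays above every E14 array. Gbp2b was higher in E14 by 4.36 ± 1.31 log2 units (adjusted p = 0.014), at least 2.37-fold, and the call was lost without E14 replicate 3 (0.071) or MEF replicate 1 (0.13). Oas2 was higher by 4.32 ± 0.61 log2 units (adjusted p = 9.9e-05), at least 1.60-fold, and with signals raised to the array median it was not called (0.32). Probe sets disagreed for 6 of 14 members here. Uba7 ranged from -5.23 to 0.13 log2 units with 2 of 3 probe sets called lower, Tor3a from -1.998 to -1.21 with 2 of 3 called, Herc6 from -3.67 to 0.92 with 1 of 4 called lower, and Adar from -0.65 to 1.16 with 1 of 3 called higher. Eif2ak2 ranged from -1.32 to 0.10 with none called, and Iigp1 from -2.47 to -1.70 with 1 of 2 called lower.

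**Figure D4:**
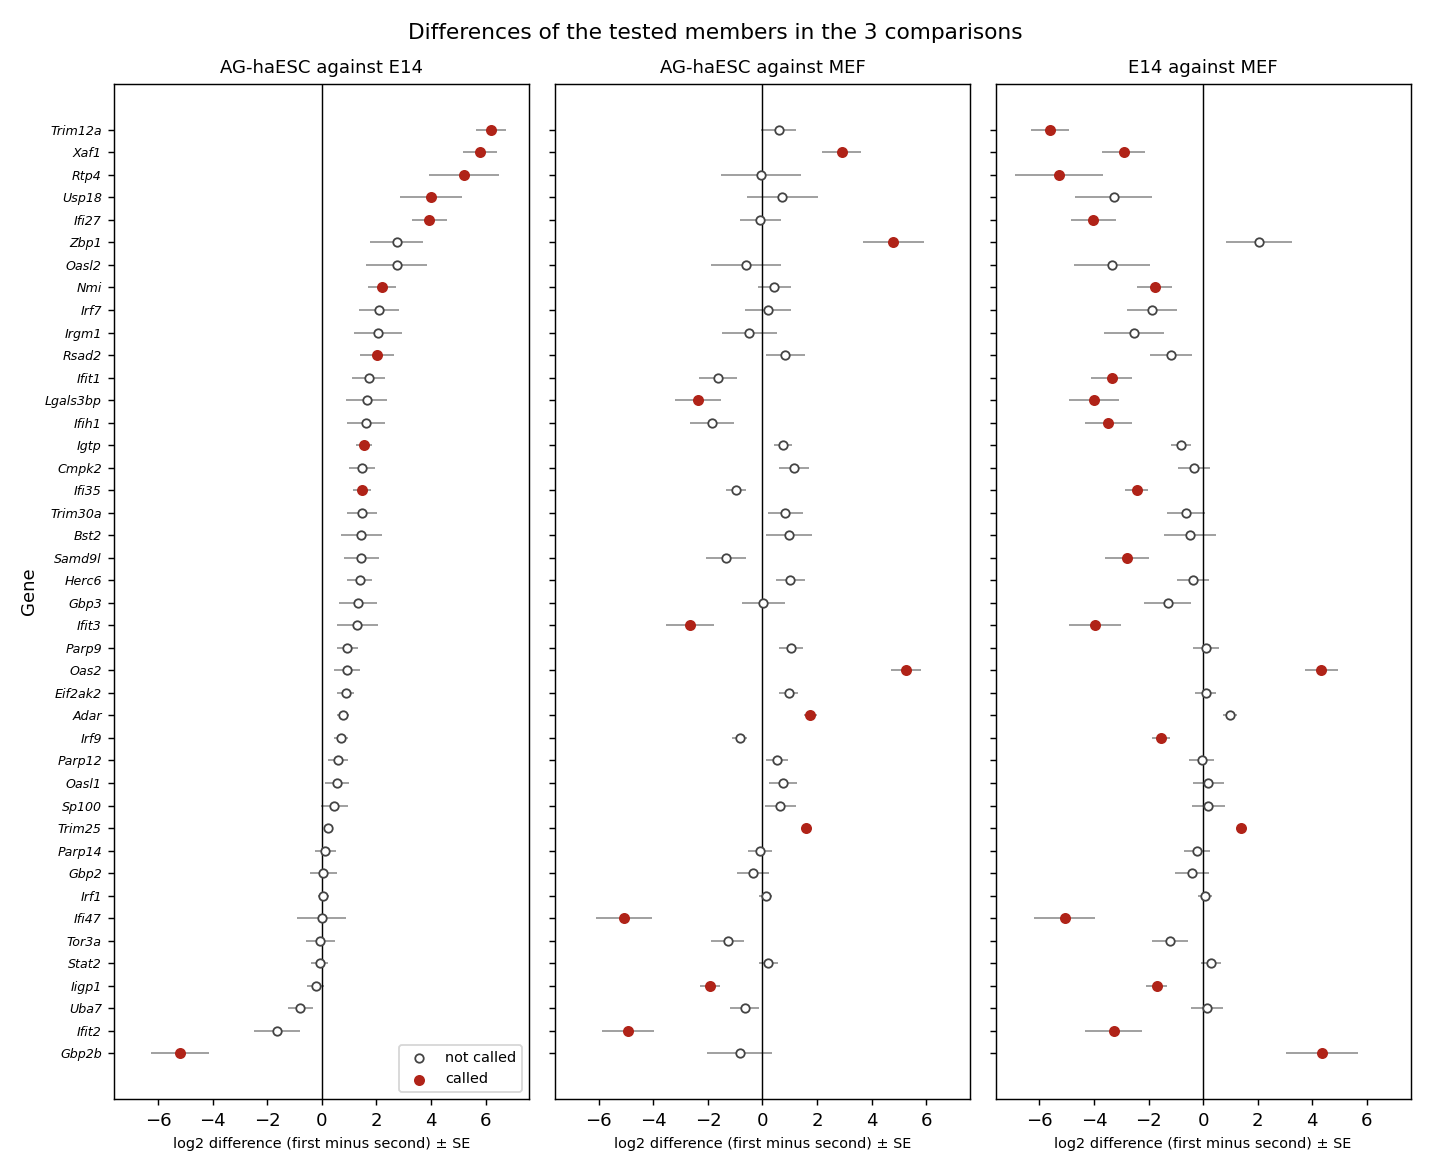
Difference in log2 signal with its SE for each tested member in 3 panels, AG-haESC minus E14, AG-haESC minus MEF and E14 minus MEF, with called members coloured. Most members lie right of 0 in the first panel (35 of 42) and left of 0 in the third (30 of 42), and they spread to both sides in the second.

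The 3 comparisons share groups of arrays, so their values are given side by side and are not independent. Of the 42 members, 19 (45.2%) were called in no comparison, against 48.0% of all genes.

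Upstream of these genes, some components were called between the haploid lines and E14, where 4.59% of all genes were called higher and 3.74% lower. Of 17 interferon genes listed, 10 had a probe set and only Ifnb1 and Ifnz passed the filter. Ifnb1, the interferon that most cells make first, read 5.22, 5.76, 4.95, 4.56 and 5.86 in the lines and 5.97, 6.11 and 5.54 in E14. It lay below the array median in all 5 lines, and its difference from E14 was -0.61 ± 0.42 log2 units (adjusted p = 0.36). The 8 other interferon genes with a probe set, Ifng among them, lay below the median in all 10 arrays. None of 10 genes listed with the receptors and kinases, the transcription factor gene Stat3 among them, was called between AG-haESC and E14. The receptor chains Ifnar1 and Ifnar2 differed by 0.05 ± 0.20 and 0.12 ± 0.24 log2 units. Of 12 tested genes of the sensing pathway, 2 were higher. Sting1, the adaptor for cytosolic DNA, read 6.32, 6.79, 7.58, 6.06 and 6.73 in the lines, 2.86, 4.75 and 5.30 in E14 and 9.97 and 9.84 in MEF. The 3 groups did not overlap, and AG-haESC was at least 1.58-fold above E14 (2.39 ± 0.51 log2 units, adjusted p = 0.0095). Ddx58, the RNA sensor RIG-I, was higher by 1.32 ± 0.40 log2 units (adjusted p = 0.047), with E14 replicate 3 inside the range of the lines. Of 9 negative regulators, Nlrx1, which restrains antiviral signalling at mitochondria, was higher (1.03 ± 0.30 log2 units, adjusted p = 0.041).

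Another 52 interferon-stimulated genes outside the 47 were listed as a second set, and 32 of them were tested. Between AG-haESC and E14, 6 were higher and none was lower, against 4.59% and 3.74% of all genes. The median difference was 0.58 log2 units, against -0.08 over all genes. Trim34a, 2 protein-coding genes from Trim12a on chromosome 7, read 9.48, 9.64, 9.59, 8.39 and 8.96 in the lines, 5.69, 5.11 and 4.65 in E14 and 6.55 and 6.40 in MEF. All lines stood above all other arrays, at least 9.0-fold over E14 (4.06 ± 0.33 log2 units, adjusted p = 3.3e-05). Ifitm3, which blocks viral entry at membranes, was higher by 2.38 ± 0.62 log2 units (adjusted p = 0.024), and Oas1a by 2.14 ± 0.59 (0.030), each with E14 replicate 3 inside the range of the lines. Tdrd7, Rnf213 and the chemokine gene Cxcl10 were higher by 1.21 ± 0.35, 1.05 ± 0.26 and 1.02 ± 0.29 log2 units (adjusted p = 0.039, 0.019 and 0.037).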

How the data were processed

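The members, their role groups and the other lists were chosen with earlier results of these data known. Per the labels, the authors made the deposited signal intensity of each probe set with MAS5 on a linear scale, and the 2% trimmed mean was 500 in every array. The sources used here give no version of that software. All tests used log2 values. The array has 45101 probe sets, of which 64 controls were left out, 34945 pair with exactly 1 symbol, 932 with several and 9160 with none listed. The filter kept 27476, and the brightest kept probe set stood for its gene, 65 kept probe sets belonging to members. limma 3.58.1 in R 4.3.3 fitted 3 group means to all 10 arrays with an intensity trend in the prior variance (residual degrees of freedom, 7), and two-sided p-values were adjusted by Benjamini-Hochberg over 13242 genes. The method was tested on simulated data. The labels call the E14 arrays biological replicates of 1 line and do not say whether both MEF arrays came from the same embryo, so p-values measure the spread between these arrays only. The number of arrays limits the precision. Named in full were the members called between AG-haESC and E14, the 6 largest called differences of each other comparison, the 6 widest ranges over the lines, and members whose probe sets disagree. From other lists, the genes called between AG-haESC and E14 and at most 3 more a list were named. Alternatives covered a pseudocount of 32, a floor at the array median, no filter, quantile normalization, the mean of probe sets, every probe set, no variance trend, array weights, only the groups compared, the replicate block for E14 and MEF, and leaving out each array.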

Additional observations from a re-analysis of the deposited data

Results flagged for a closer look

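In 1 of the 42 members tested for it, a haploid line stood apart from the other lines by more than Dixon's 95% limit. Stat2, a transcription factor that joins IRF9 in the interferon response, read 6.41 on the log2 scale in AG-haESC replicate 4 (AGH-OG-3), while the nearest other line read 6.76. The gap was 0.73 of the range of the 5 lines, above the limit of 0.71. The other kept Stat2 probe set, 1450403_at, read 5.74, 6.42, 6.65, 6.43 and 6.15 in the lines. There AGH-OG-3 lay inside the range of the others. Chance flags about 1 in 20 such groups.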

How the results depend on the processing

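Among the called differences of members under the alternatives, 547 kept direction and call, 52 lost the call and 1 reversed. Xaf1 between AG-haESC and MEF reversed to -0.24 log2 units with the mean of its probe sets, because they point in opposite directions. With signals raised to the array median, the members higher in AG-haESC than E14 numbered 5, those lower 0 and those higher in E14 than MEF 1, since that floor removes differences among dim signals. The all-gene counts beside them were 502, 445 and 2291. With limma's array weights, 22 members were higher in AG-haESC than E14 (6.32% of all genes), and 8 higher (20.6%) and 8 lower (23.7%) than in MEF. With every probe set tested, 2 were lower in AG-haESC than E14 and 8 lower than in MEF, beside 793 and 5488 of 27476 probe sets. The mean of probe sets gave 3 higher in AG-haESC than MEF, beside 2593 genes, and the fit of only the groups compared gave 8 lower. Without single arrays, 5 to 15 members were higher in AG-haESC than E14, beside 499 to 684 of all genes. No range of counts is given for the comparisons with MEF, since leaving out a MEF array leaves 1 array in that group. In fits without a MEF array, the lone MEF array left was assumed to vary like the other groups. E14 and MEF share replicate numbers 1 and 2, and the correlations of their deviations were 0.0015 and -0.03. The deviations of the 2 MEF arrays mirror each other, so these correlations cannot settle whether the numbers pair the arrays. The replicate block, with 1 residual degree of freedom, gave 23 members lower in E14 than MEF. Over all genes it called 5615 in either direction, against 5581 in the main fit. That count was not split by direction, so the 23 members have no like share beside them. The causes of the other shifts were not tested. Quantile normalization put the all-gene median of E14 minus MEF at 0.13 log2 units. Signals below the array median limit Trim12a, Gbp2b, Oas2, Zbp1, Rtp4 and Usp18, whose folds are bounds.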

Other observations

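Of the second set of interferon-stimulated genes, 9 of 32 tested were higher and 4 lower in AG-haESC than in MEF, where 19.7% of all genes were higher and 22.5% lower. In E14, 8 were higher and 10 lower than in MEF, against 20.9% and 21.3% of all genes. Aim2, a sensor of cytosolic DNA, was higher in AG-haESC by 5.38 ± 0.64 log2 units (adjusted p = 2.4e-05) and in E14 by 5.18 ± 0.70 (7.3e-05). Phf11d was higher in AG-haESC by 4.33 ± 0.19 log2 units and in E14 by 3.63 ± 0.21. Ifi204, a DNA-binding protein of the same family as Aim2, was lower in AG-haESC than in MEF, with -4.53 ± 1.61 log2 units (adjusted p = 0.029). Ifi204 passed the filter only through MEF, the group where it was high. These comparisons share the 2 MEF arrays.

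Of 10 genes listed with the receptors and kinases, 7 were lower in AG-haESC than in MEF (22.5% of all genes). In E14, 7 were lower than in MEF (21.3%). Both counts include Stat3, which is a transcription factor gene. Only 1 gene, Ifnlr1, was higher in each comparison. Ifngr2, a chain of the receptor for interferon gamma, differed by -3.55 ± 0.32 log2 units between AG-haESC and MEF and by -3.54 ± 0.35 between E14 and MEF. Il10rb, a chain of the receptor for interferon lambda, differed by -3.18 ± 0.31 and -3.60 ± 0.33 log2 units, and Jak2 by -1.87 ± 0.26 and -2.10 ± 0.28. In the sensing pathway, 6 of 12 genes were lower in AG-haESC than in MEF, beside 22.5% of all genes. In E14, 8 of 12 were lower than in MEF, beside 21.3%. Both counts include Ikbke, which passed the filter only through MEF, the group where it was high. Mavs was higher in AG-haESC than in MEF by 1.29 ± 0.24 log2 units (adjusted p = 6.5e-04). Of 9 negative regulators, Ptpn6 and Socs3 were higher in both stem cell groups than in MEF, and Irf2 and Ptpn11 lower in both. Irf2 passed the filter only through MEF, the group where it was high.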
